A study of Mus musculus with 42 samples.

Results

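Mouse C2C12 muscle cells that had been differentiated into myotubes (MT) were analysed 4 h after the end of an arsenite stress. The members were chosen by their labels: the cytoplasmic 3′READS library of MT cells exposed to 250 µM sodium arsenite for 1 h and then kept for 4 h in arsenite-free medium (RC4), and the 2 cytoplasmic libraries of MT cells that were not treated (NT), labelled 0 h and 4 h. These are 3 of the 42 libraries of the series. The MT library made directly after the arsenite pulse (AS), and the NT, AS and RC4 libraries of proliferating C2C12 myoblasts (MB), were used only for comparison. All 8 libraries were cytoplasmic RNA of 1 immortalized line, C2C12, with no genetic change, and differentiation was induced by horse serum at high confluency. RC4 and AS had 1 library each in each cell state, so recovery itself has no replicate.

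3′READS reads the junction of an mRNA and its poly(A) tail, so each read marks a polyadenylation site (PAS) and each mRNA gives reads at its end, whatever its length. Arsenite binds protein thiols. It damages proteins and oxidizes cells, and it is a classical inducer of stress granules and of the heat shock, antioxidant and integrated stress responses. In recovery, translation resumes while HSF1, NRF2 and ATF4, the factors behind these 3 programs, have had time to build up their target mRNAs. Many genes also carry several PASs in their last exon. A proximal PAS (pPAS) gives a short 3′UTR and a distal PAS (dPAS) a long one that also holds the alternative 3′UTR (aUTR) between the sites.

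The MT libraries held 2332277 (NT 0 h), 2814299 (NT 4 h), 2923091 (AS) and 2810736 (RC4) PAS reads. Across all 8 libraries, 83.4 to 89.4% of the reads fell in annotated protein-coding genes. Clusters with fewer than 5 reads are not listed in a library, so a gene at 0 had at most 4 reads at each of its PASs. Markers fitted the MT label: Ckm, the muscle creatine kinase, had 866 and 887 normalized reads per 1000000 gene reads (RPM) in the MT NT libraries and was listed at 0 in both MB NT libraries, while the mitotic kinase Cdk1 had 178 and 154 RPM in MT and 886 and 609 RPM in MB. The source label of all these libraries reads myoblast, and their differentiation is stated in the title and protocol. Of the markers of other cell types, Pecam1, Cdh5, Ptprc, Itgam, Epcam, Cdh1, Krt5, Adipoq, Plin1, Cfd, Lep, Sp7, Bglap and Ibsp were listed at 0 in the NT and RC4 libraries of MT. The summed level of the 4 leukocyte markers was 2.41 and 2.84 RPM in NT and 12.4 RPM in RC4, and that of the 4 endothelial markers was 0 in NT and 4.44 RPM in RC4. The epithelial markers summed to 5.30 and 6.08 RPM in NT and 6.66 RPM in RC4, the osteoblast markers, all from Runx2, to 29.4, 27.5 and 28.0 RPM, and the adipocyte markers to 0. Their part in the results was not tested.

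At 4 h of recovery, MT cells carried high levels of induced mRNAs for protein folding. The chaperone genes Hspa1b, Dnajb1 and Hsph1 each reached between 9658 and 13688 RPM. Atf3 (319-fold) and Hmox1 (188-fold) rose most among the members of the other stress lists that were listed in NT. Of 8547 genes tested with edgeR's quasi-likelihood test (Benjamini-Hochberg adjusted p of 0.05), 190 rose (2.22%) and 68 fell (0.796%) against NT. All but 1 of the 190 and all of the 68 also passed 2-fold against each NT library. Over all genes, 432 were at least 2-fold higher (5.05%) and 550 at least 2-fold lower (6.44%) than each NT library, and between the NT libraries 196 genes (2.29%) were 2-fold higher and 166 (1.94%) 2-fold lower at 4 h than at 0 h. For the 3791 genes with a mean of at least 100 reads, the SD of the log2 ratio was 0.32 between the NT libraries and 0.84 and 0.79 between RC4 and each of them.

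The spread in this test came from the NT pairs of MT and MB, with 2 residual degrees of freedom, and the RC4 library was assumed to vary like them. No label says that the NT libraries came from separate cultures. The p-values thus measure only the spread between these libraries, which may be technical or come from the sampling times, 0 h and 4 h. Without the NT 0 h library 25 genes rose and 1 fell, and without the NT 4 h library 24 rose and 1 fell. The 21 genes that rose in both of these fits include Hspa1a, Hspa1b, Hspa1l, Dnajb1, Hsph1, Hspb1, Bag3, Dnaja4, Hmox1, Atf3, Gdf15, Ppp1r15a, Fos, Jun and Plk2, and G0s2 was the gene that fell in both. Of the calls in the gene lists, these fits kept 6 of 16 chaperones, 1 of 7 NRF2 targets, 2 of 8 ATF4 targets, 2 of 12 immediate early genes, 1 of 2 p53 targets and 1 of 4 ubiquitin and AN1 genes. They kept 0 of 2 rises in the unfolded protein response, 0 of 2 in the extracellular matrix, 0 of 3 among ZFP genes and 0 of 1 among polyadenylation factors. In bulk RNA, fewer cells of a kind and less RNA per cell cannot be told apart.

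**Figure D1:**
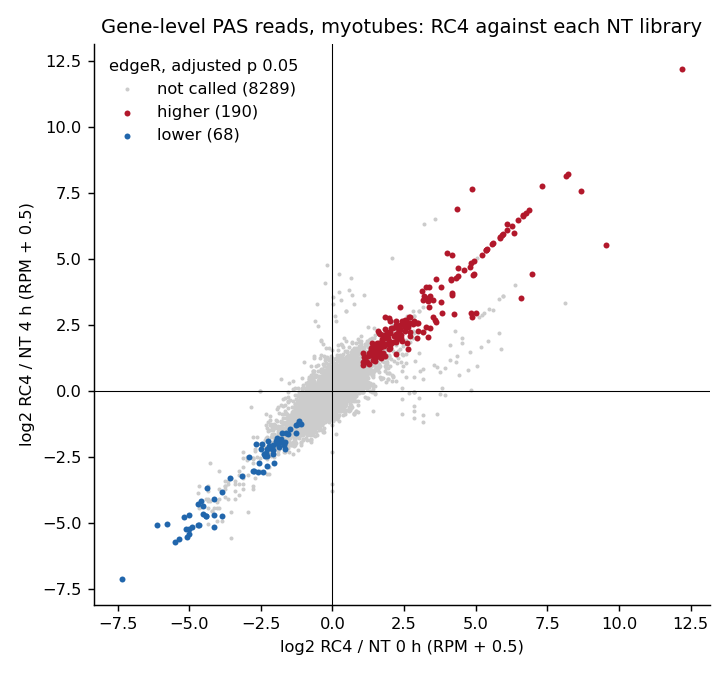
log2 ratio of RC4 to the NT 0 h library (x axis) and to the NT 4 h library (y axis), on normalized RPM plus 0.5, for 8547 genes, 1 point per gene. Red points are the 190 genes that rose and blue points the 68 that fell by the edgeR test, and grey points are genes not called. Of the red and blue points, 189 and 68 passed 2-fold against each NT library. Over all genes 432 and 550 did, so grey points also lie in these regions.

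Chaperones formed the list with the highest median. The list is mostly cytosolic and also holds the mitochondrial Hspd1 and Hspe1. Chaperones bind unfolded proteins, and HSP70 proteins work with J-domain (Dnaj) partners and with nucleotide exchange factors such as Hsph1 and Bag3. Of 21 chaperones tested, 16 rose and none fell, and all 21 were above each NT library, as were 38.0% of all genes tested. Their median log2 fold change was 2.53, beside -0.04 for all genes. As background for the counts in each list, 2.22% of all genes tested rose and 0.796% fell.

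The inducible HSP70 gene Hspa1b had 32.7 and 70.5 RPM in NT, 766 RPM in AS and 13688 RPM in RC4. RC4 was 265-fold above the NT mean (log2 fold change 8.04 ± 0.48 SE, edgeR adjusted p = 0.000481). Its neighbour Hspa1a was listed at 0 in both NT libraries and had 55.3 RPM in AS and 2327 RPM in RC4, which was at least 188-fold above the most that unlisted PASs could hold. The coding sequences of this pair are nearly identical. Reads here mark PASs and low-quality alignments were dropped, and how well reads were split between the pair was not tested. Hspa1l, a further HSP70 gene of the same locus, was also listed at 0 in NT and had 6.02 RPM in AS and 140 RPM in RC4.

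Dnajb1, the HSP40 partner of HSP70, had 147 and 187 RPM in NT, 1918 RPM in AS and 11804 RPM in RC4, a 70.8-fold rise (log2 fold change 6.14 ± 0.26 SE, edgeR adjusted p = 0.000134). Hsph1 had 167 and 172 RPM in NT, 509 RPM in AS and 9658 RPM in RC4, a rise of 57.1-fold. For these genes every stressed library lay above both NT libraries, and RC4 lay above AS. The small heat shock protein Hspb1 had 59.7 and 61.6 RPM in NT and 2228 RPM in RC4, and the co-chaperone Bag3 had 111 and 112 RPM in NT and 2291 RPM in RC4. Cryab, a small heat shock protein abundant in muscle, was lower in AS (261 RPM) than in NT (565 and 504 RPM) and stood at 3247 RPM in RC4. The mitochondrial co-chaperonin Hspe1 had 1015 and 885 RPM in NT, 869 RPM in AS and 5490 RPM in RC4. Hspa4l and Fkbp4 did not pass the test, with log2 fold changes of 0.54 ± 0.37 and 0.38 ± 0.24 SE.

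Heat shock factors bind repeats of a short unit in alternating orientation. The search used GAANNTTCNNGAA on either strand, in RefSeq promoter windows (GRCm38.p6, 250 bases before to 50 bases after each start). It matched 5 of 18 chaperones with a window (27.8%) and 179 of 27025 genes in the table (0.662%). The matches were Chordc1, Dnajb6, Hspe1, Hsph1 and Hspd1, the last of which had no assigned reads and was not tested. Dnajb6 was tested and not called. The other 3 rose by the test and are shown here for that reason, 30 bases each with the match to the 3-unit repeat in capitals.
Hsph1, chr5:149636279-149636308, minus strand: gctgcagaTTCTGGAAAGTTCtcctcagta
Hspe1, chr1:55088051-55088080, plus strand: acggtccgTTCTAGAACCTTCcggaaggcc
Chordc1, chr9:18292255-18292284, plus strand: tgcaaccgGAACGTTCGGGAAaattcctga
Dnajb1, Hspa1a and Hspa1b had a window without this exact repeat, which says only that these letters were not found there.

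Genes of protein disposal moved with the chaperones. Among 6 ubiquitin and AN1 zinc finger genes tested, 4 rose and none fell. Zfand2a, an arsenite-inducible partner of the proteasome, had 18.8 and 25.9 RPM in NT, 21.4 RPM in AS and 343 RPM in RC4. The AS library was thus within the NT range for Zfand2a, and RC4 was 15.3-fold above the NT mean. Zfand5 rose 4.99-fold and Ubb 3.22-fold. None of 27 proteasome subunits passed the test, and 21 of them were above each NT library, as were 38.0% of all genes. Their median log2 fold change was 0.30, and 0.12 with scaling by library totals alone.

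NRF2 targets, which detoxify and restore thiols, rose in part. Of 17 tested, 7 rose and none fell, with a median of 0.50. Hmox1, the heme-degrading oxygenase, had 24.1 and 17.8 RPM in NT, 324 RPM in AS and 3943 RPM in RC4 (188-fold, log2 fold change 7.56 ± 0.30 SE, edgeR adjusted p = 0.000134). The thioredoxin reductase gene Txnrd1 had 17.8 and 23.9 RPM in NT, 27.5 RPM in AS and 145 RPM in RC4. Slc7a11, the cystine importer, was listed at 0 in NT and had 2.26 RPM in AS and 37.7 RPM in RC4. Osgin1, Sqstm1, Srxn1 and Gclm rose as well. The iron store Fth1 and the peroxiredoxin Prdx1, the most abundant NRF2 targets that were not called, had log2 fold changes of 0.21 ± 0.24 and 0.40 ± 0.20 SE. The letters TGACNNNGC, the core of the antioxidant response element, were found in the promoter windows of 7 of 15 NRF2 targets (46.7%) and of 13.99% of all genes in the table. They were also found in 5 of 19 ATF4 targets (26.3%). Among the matches Gclm, Srxn1 and Txnrd1 rose, and G6pdx, Me1, Pir and Prdx1 were not called. Slc7a11, Hmox1, Osgin1 and Sqstm1 rose and were not among the matches. Metallothioneins bind metals, and Mt1 and Mt2 were at 2366 and 3151 RPM in RC4. The NT libraries themselves differed, at 560 and 1583 RPM for Mt1 and 379 and 1874 RPM for Mt2, and neither gene passed the test.

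ATF4 and its targets make up the integrated stress response, which pairs reduced translation with amino acid supply. Of 16 targets tested, 8 rose and none fell, with a median of 1.27. Atf3, a transcription factor induced by many stresses, had 7.70 RPM in each NT library, 348 RPM in AS and 2454 RPM in RC4, a 319-fold rise (log2 fold change 8.30 ± 0.29 SE, edgeR adjusted p = 0.000131). Ppp1r15a (GADD34), which reverses eIF2α phosphorylation, had 12.0 and 17.0 RPM in NT, 73.7 RPM in AS and 371 RPM in RC4. Sesn2 rose 25.3-fold, Trib3 23.5-fold, Chac1 12.1-fold and Ddit3 (CHOP) 6.73-fold. Atf4 itself, whose control is mainly translational, had a log2 fold change of 0.40 ± 0.20 SE and was not called. TGATGNAA, part of the element that ATF4 shares with C/EBP factors, was found in the windows of 6 of 19 targets (31.6%: Asns, Atf3, Chac1, Nupr1, Trib3 and Vldlr) and of 4.51% of all genes in the table. Of these matches Atf3, Chac1 and Trib3 rose by the test. Sesn2, Ppp1r15a, Ddit3, Cebpb and Ddit4 rose and were not among the matches. In the unfolded protein response of the endoplasmic reticulum, 2 of 15 genes rose, the luminal chaperone Hspa5 by 2.69-fold and Herpud1 by 2.66-fold, and neither was called in both fits that left out an NT library.

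**Figure D2:**
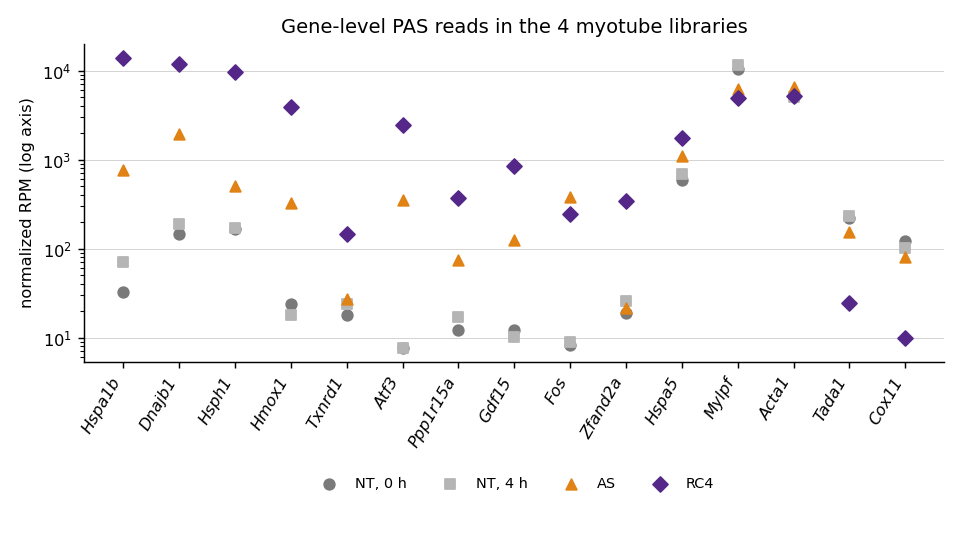
Normalized RPM (log axis) of 15 genes in the 4 MT libraries, 1 point per library: grey circles for NT 0 h, light squares for NT 4 h, orange triangles for AS and violet diamonds for RC4. The RC4 points of Hspa1b, Dnajb1, Hsph1 and Hmox1 lie above the other points of the same gene, Fos is higher in AS than in RC4, and Tada1 and Cox11 have their lowest point in RC4.

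Immediate early genes encode short-lived transcription factors and phosphatases that follow kinase signalling within minutes. Of 29 tested, 12 rose and 1 fell, and the median was 1.45. Fos had 8.19 and 8.91 RPM in NT, 380 RPM in AS and 243 RPM in RC4 (28.4-fold over NT, log2 fold change 4.82 ± 0.26 SE, edgeR adjusted p = 0.000352). Jun stood at 59.2 and 44.97 RPM in NT, 429 RPM in AS and 547 RPM in RC4, so both partners of AP-1 were still raised at 4 h. Egr1 and Fosb were listed at 0 in NT and had 57.7 and 28.0 RPM in RC4. Dusp2, a phosphatase of MAP kinases, had 2.89 and 0 RPM in NT and 99.4 RPM in RC4. Klf2 was the member that fell: it had 92.4 and 139 RPM in NT, 327 RPM in AS and 29.3 RPM in RC4. Among 11 p53 targets, the polo-like kinase Plk2 (11.2-fold) and the p53 inhibitor Mdm2 (3.92-fold) rose, and Phlda3 fell 2.24-fold. The median of this list was 0.13, with 5 members above and 4 below each NT library. Cdkn1a (p21) had 3142 and 3186 RPM in NT and 2040 RPM in RC4 and was not called.

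Most of the listed sarcomere genes and myogenic regulators stood below both NT libraries, and few passed the test. Of 36 sarcomere and contraction genes tested, none rose and 1 fell. The gene that fell was Mylpf, the fast regulatory myosin light chain, with 10446 and 11568 RPM in NT, 6159 RPM in AS and 4890 RPM in RC4 (log2 fold change -1.17 ± 0.21 SE, edgeR adjusted p = 0.0371). In this list 30 genes were below each NT library, as were 41.5% of all genes, and the median was -0.44. Acta1, the skeletal actin, had 5094 and 5048 RPM in NT and 5193 RPM in RC4, so contractile mRNAs did not move as 1 block. The 12 myogenic regulators had a median of -0.94 with 9 below each NT library and none called. Myog stood at 676 and 514 RPM in NT and 438 RPM in RC4, and Mef2c at 726 and 594 RPM in NT and 329 RPM in RC4.

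Respiratory chain genes had a median of -0.26, with 51 of 72 below each NT library (41.5% over all genes) and none called. ZFP zinc finger genes, whose mRNAs are often short-lived, had a median of -0.51. Of 133 tested, 91 were below each NT library, as were 41.5% of all genes. By the test 3 rose (Zfp367, Zfp703 and Zfp36) and 2 fell (Zfp324 and Zfp563), beside 2.22% and 0.796% of all genes. Both that fell were listed at 0 in RC4, at least 2.18-fold lower for Zfp324 and 2.83-fold for Zfp563. Their NT reads were few, 23 and 30 for Zfp324 and 24 and 21 for Zfp563. In the extracellular matrix list, fibronectin (Fn1, 337 and 423 RPM in NT, 1519 RPM in AS and 1676 RPM in RC4) and Col5a1 rose. In this list none of 14 fell, and 13 were above each NT library (38.0% over all genes). Neither Fn1 nor Col5a1, nor Cstf3 described next, was called in both fits that left out an NT library. Of 18 cleavage and polyadenylation factors tested, Cstf3 rose 3.82-fold and none fell. Cstf2t had 4804 and 6836 RPM in NT, 600 RPM in AS and 2678 RPM in RC4, almost all from 1 PAS past its annotated end, and whether those reads belong to this gene is uncertain. In the lists of stress granule proteins (11 tested), AU-rich element binding proteins (4), ribosomal proteins (56) and cell cycle genes (19) no member passed the test. Zfp36, which also binds AU-rich elements, was not in the second of these lists and rose 2.74-fold. With scaling by library totals alone the median of all genes moved from -0.04 to -0.22, and the medians of the p53, cell cycle, polyadenylation factor and ribosomal lists changed sign.

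**Figure D3:**
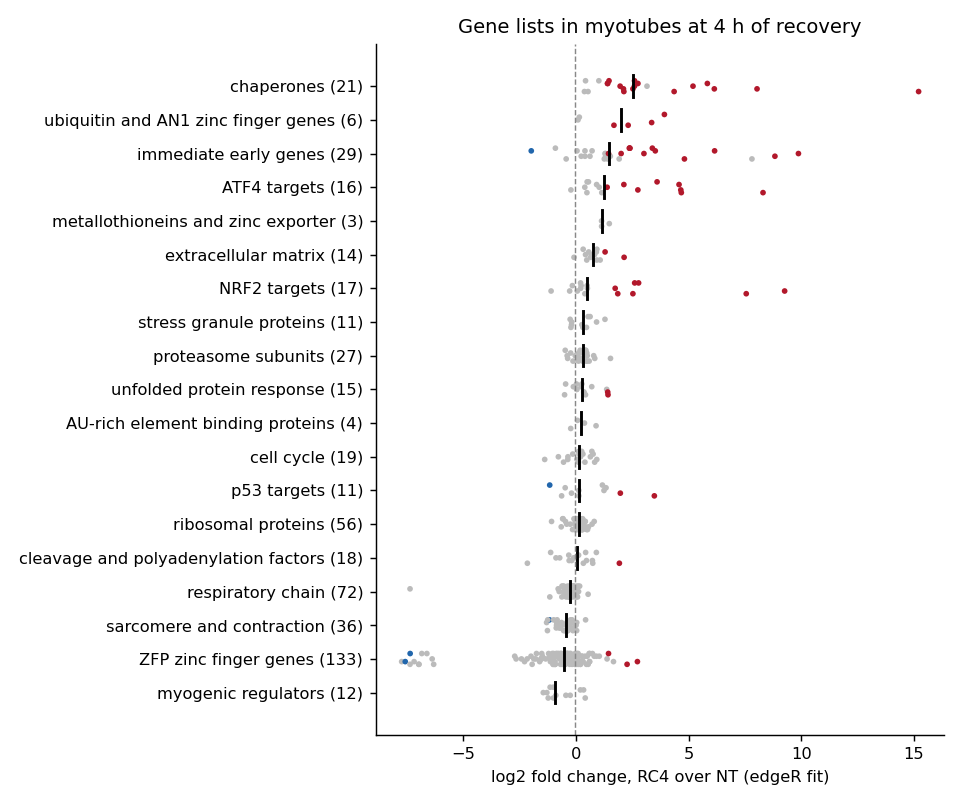
log2 fold change of RC4 over NT for the tested members of 19 gene lists (number of members in parentheses), 1 point per gene, red for genes that rose, blue for genes that fell, grey for genes not called. Black bars are list medians and the dashed line is the median of all genes: chaperones (2.53) stand highest and myogenic regulators (-0.94) lowest, and the medians of the p53, cell cycle, polyadenylation factor and ribosomal lists change sign with scaling by library totals.

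G0s2, an inhibitor of triglyceride lipolysis, had 80.9 and 70.5 RPM in NT, 40.3 RPM in AS and was listed at 0 in RC4, at least 42.6-fold lower. Of the 68 genes that fell, 24 were listed at 0 in RC4. Tada1, a subunit of the SAGA histone acetylation complex, had 220 and 235 RPM in NT, 152 RPM in AS and 24.4 RPM in RC4 (9.30-fold lower, log2 fold change -3.21 ± 0.32 SE, edgeR adjusted p = 0.00447). Cox11, an assembly factor of cytochrome oxidase, had 121 and 101 RPM in NT, 79.4 RPM in AS and 9.76 RPM in RC4. Among called genes with a mean of at least 50 reads, Efna4, Hdhd3, Ctu1, Art1, Has2, Zbtb9 and Mepce complete the 10 with the largest falls, at 6.49-fold to 20.5-fold below the NT mean. Hdhd3 had 56.3 and 34.8 RPM in NT, 80.1 RPM in AS and 2.22 RPM in RC4.

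Whether the response still grew after arsenite was removed was asked by comparing RC4 with AS directly, 1 library against 1. In the same fit 27 genes were higher (0.316%) and 13 lower (0.152%) in RC4 than in AS. Hsph1 was higher by 4.24 on the log2 scale (edgeR adjusted p = 0.00852), Hmox1 by 3.60 (adjusted p = 0.0171), Hspa1b by 4.16 (adjusted p = 0.0327), Zfand2a by 4.00 (adjusted p = 0.026) and Atf3 by 2.82 (adjusted p = 0.0222). The log2 difference of RC4 from AS was -0.65 for Fos and 0.35 for Jun, and neither passed the test (adjusted p = 0.333 and 0.666). It was -5.14 for Hdhd3 (adjusted p = 0.0311), -3.48 for Klf2 (adjusted p = 0.0245), -3.41 for Ctu1 (adjusted p = 0.0327) and -2.63 for Tada1 (adjusted p = 0.0311). The calls depended on the NT libraries through the estimate of the spread: without either one, edgeR called 0 genes higher and 0 lower, with 731 (without NT 0 h) and 712 genes (without NT 4 h) at an unadjusted p under 0.05. With DESeq2, 52 genes were higher and 16 lower, and with no filter on low reads edgeR called 4 higher and 0 lower. With sampling time (0 h or 4 h) as a replicate block, 17 were higher and 8 lower.

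The MB libraries have their own NT controls, so the responses of the 2 cell states were set side by side. In MB 204 genes rose (2.39%) and 135 fell (1.58%), or 305 and 240 with sampling time as a replicate block. In both states 110 genes rose, which is 57.9% of the MT list and 53.9% of the MB list, and 30 fell in both, 44.1% of the MT list and 22.2% of the MB list. The median log2 fold change of the 190 genes was 2.36 in MT and 1.89 in MB. Hmox1 rose by 7.56 in MT and 7.51 in MB on the log2 scale, and Dnajb1 by 6.14 and 5.17.

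The difference between the 2 responses was tested as an interaction. edgeR called no gene (lowest adjusted p = 0.312), although 796 genes had an unadjusted p under 0.05, and DESeq2 called 6 genes with a larger and 5 with a smaller log2 fold change in MT. Cdkn1a had the lowest adjusted p: it had 3142 and 3186 RPM in NT and 2040 RPM in RC4 of MT, but 348 and 389 RPM in NT and 1581 RPM in RC4 of MB (difference -2.73, DESeq2 adjusted p = 2.42e-12, edgeR adjusted p = 0.312). Gadd45a, another p53 target, moved by 1.25 in MT and 4.15 in MB (DESeq2 adjusted p = 8.29e-06, edgeR adjusted p = 0.357). Jun went the other way, with 3.39 in MT and 0.94 in MB (DESeq2 adjusted p = 0.00327, edgeR adjusted p = 0.357), as did Atf3, with 8.30 and 5.78. Fn1 moved by 2.14 in MT and 0.33 in MB. The call for these genes thus depended on the tool.

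3′UTR isoforms shifted toward proximal PASs at 4 h of recovery. For each gene the pPAS and dPAS were its 2 most abundant 3′UTR PASs, at most 10 kb apart, and RED was log2(dPAS/pPAS) in RC4 minus that in NT, so that negative values mean relatively more short isoform. Over 2631 genes whose isoforms each exceeded 5 reads in all 3 libraries, the median RED was -0.29 and 68.5% of genes were below 0. Between the NT libraries the median RED was 0.03 and 47.5% were below 0. Against the single NT libraries the median was -0.28 and -0.32.

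A gene was called when Fisher's exact test (p of 0.05, unadjusted) and a shift of the dPAS share by over 5 percentage points were met in the same direction against each NT library. By this rule 352 genes were shortened (13.4%) and 18 lengthened (0.684%). The criteria applied once between the NT libraries gave 94 shortened (3.22%) and 122 lengthened genes (4.18%) of 2922, and 7 of the 352 were among those 94. Fisher's test on reads compares these libraries, not the conditions. The edgeR isoform-by-group test, which includes the spread between libraries, called no gene, and at an unadjusted p under 0.05 it gave 210 genes toward the pPAS and 10 toward the dPAS.

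The shift grew with aUTR length. In 5 bins of equal size, the median RED was -0.11 for the shortest aUTRs (25 to 119 nt), -0.19, -0.20 and -0.46 in the next bins and -0.70 for the longest (1702 to 8208 nt). The difference between the last and the first bin was -0.59, and it was -0.0033 between the NT libraries. Shortened genes numbered 216 of 527 in the longest bin and 46 of 526 in the shortest when NT reads were summed. The median aUTR of the 352 genes was 1464 nt (quartiles 688 to 2494 nt), beside 449 nt for genes not called and 316 nt for lengthened genes. AS against NT also had a gradient, with a median RED of 0.01 in the shortest bin, -0.34 in the longest and -0.15 over all genes.

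**Figure D4:**
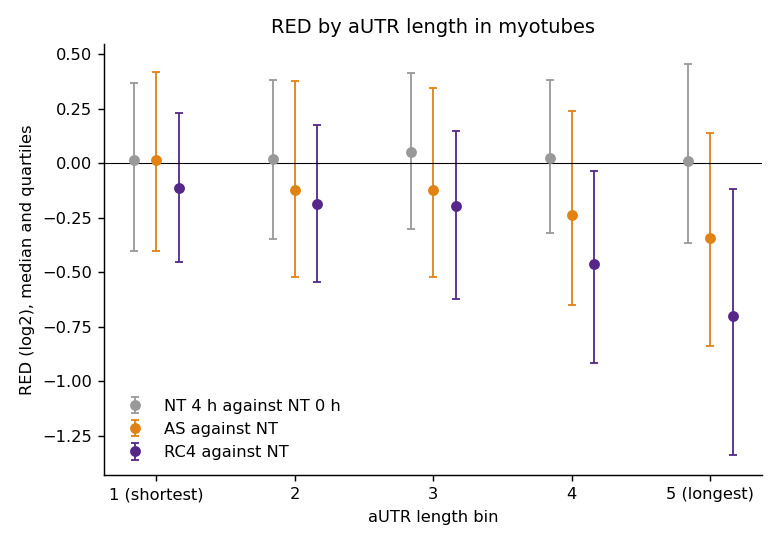
Median RED (points) with quartiles (bars) in 5 equal bins of aUTR length, for RC4 against NT (violet), AS against NT (orange) and NT 4 h against NT 0 h (grey). The RC4 medians go from -0.11 in the shortest to -0.70 in the longest bin and the AS medians from 0.01 to -0.34. The NT medians stay between 0.01 and 0.05.

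In most shortened genes the 2 isoforms moved in opposite directions. The pPAS isoform was higher and the dPAS isoform lower than the NT mean in 246 of the 352 genes, both were higher in 77 and both lower in 29. Over all 2631 genes these counts were 760, 803 and 826. The median log2 change was 0.94 for the pPAS and -0.45 for the dPAS isoform, beside 0.14 and -0.13 over all genes. The call fixes only the difference between these values. It was made on these same libraries, so it favours opposite moves. At the gene level 22 of the 352 genes rose and none fell, and 55 of 2629 genes with an isoform pair and a gene-level test rose. The median dPAS share of the 352 genes was 69.2% and 69.5% in NT, 58.3% in AS and 41.8% in RC4. Against AS directly, 419 genes were shortened and 128 lengthened in RC4 of 2989, with a median RED of -0.20.

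The sequence between and before the sites was read from mm9. Shortened genes had a median of 1.65 ATTTA motifs per kb of aUTR, beside 0.93 in genes not called, and 79.5% and 54.9% had at least 1, but their aUTRs were also longer. TTTT occurred 15.9 times per kb beside 14.1. Within 45 nt upstream of the dPAS, AATAAA was present in 74.7% of shortened genes and 58.3% of genes not called, and for the pPAS the shares were 51.4% and 49.8%. These are descriptions, and no test was made.

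Pairs of PASs are shown here for the 3 genes with the most negative RED and for 2 chaperones whose isoforms the study followed by qPCR, because the isoform results turn on these ends. Each is the 30 bases of the sense strand that end at the PAS in mm9, with AATAAA or ATTAAA in capitals.
Fem1b pPAS, chr9:62643841-62643870, minus strand: ggtgctaaaaagtaaaggactttaatcaca
Fem1b dPAS, chr9:62639631-62639660, minus strand: tgttgtgttcagtaaatgtttgaaaaaaaa
Aars pPAS, chr8:113579440-113579469, plus strand: tgcagaaAATAAAaaggaccatgtgcaata
Aars dPAS, chr8:113581476-113581505, plus strand: aaaacataaaaactattttatgactggaaa
Fam178a pPAS, chr19:45057482-45057511, plus strand: gcaagctgaacATTAAAgtacttgtgttta
Fam178a dPAS, chr19:45058247-45058276, plus strand: gtgttATTAAAacttttttctcagcttaaa
Hspa4l pPAS, chr3:40594330-40594359, plus strand: tgtgATTAAAttatagttcctgctgttaaa
Hspa4l dPAS, chr3:40599996-40600025, plus strand: AATAAAtacatattctacctgctacttgaa
Dnajb1 pPAS, chr8:86134839-86134868, plus strand: cacagaatatattacaatctttcaaagtcg
Dnajb1 dPAS, chr8:86135773-86135802, plus strand: gacagcATTAAAgactgatgctaaacctca
Both sites of each gene lie in its last exon, except the dPASs of Fem1b and Dnajb1, which lie past the annotated end.

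Fem1b, a substrate receptor of a ubiquitin ligase, had the most negative RED, -4.36, over an aUTR of 4210 nt. Its dPAS share was 88.2% and 87.8% in NT, 81.1% in AS and 26.2% in RC4 (Wilson 95% interval 19.7 to 34.1%, counting error only). The pPAS isoform went from 5.30 and 5.67 RPM to 46.1 RPM and the dPAS isoform from 39.5 and 40.9 RPM to 16.4 RPM. In MB the RED was -4.02.

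Aars, the alanyl-tRNA synthetase, used its dPAS for 12.7% and 14.5% of reads in NT, 13.1% in AS and 1.27% in RC4. The RED was -3.62. Lbh, a regulator of transcription, went from 34.8% and 36.5% to 6.91%, and Vps33a, a subunit of endosomal tethering complexes, from 83.0% and 76.6% to 34.5%. Both NT libraries lay far above RC4 in each case, and AS lay near NT (30.6% for Lbh, 84.9% for Vps33a). Rbm20, a splicing factor of titin in muscle, went from 51.9% and 41.8% to 10.7%. Plekhh2, Gabpa, Med13 and Rara had REDs from -3.14 to -2.84. For Fam178a the AS share, 60.0%, was already between NT (77.4% and 81.9%) and RC4 (29.7%).

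Of the 8 genes whose isoforms the study followed by qPCR, 3 were shortened, and Purb had no pair because its sites fall under 2 annotated gene models. Dnajb1 combined the strongest gene-level rise of this set with a shift to the pPAS. Its dPAS share was 88.5% and 83.3% in NT, 89.3% in AS and 74.1% in RC4, while both isoforms rose, the pPAS isoform from 16.9 and 31.2 RPM to 3037 RPM and the dPAS isoform from 130 and 156 RPM to 8706 RPM. The NT libraries also differed by the same criteria for Dnajb1, and the change in RC4 was larger. Hspa4l, an HSP110 family gene, went from 38.0% and 40.8% in NT to 17.8% in AS and 22.2% in RC4, with a RED of -1.21. Nmt1, an N-myristoyltransferase, had 44.9% and 40.5% in NT and 33.0% in RC4 (RED -0.57). Fam49b, Timp2 and Rpl22 had REDs of -0.66, -0.17 and 0.01 and were not called.

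Lengthening was rare. The 5 genes with the most positive RED were Pde7a (2.32), Mfsd11 (1.82), Arih1 (1.61), Esyt1 (1.54) and Csk (1.43). Pde7a, a cAMP phosphodiesterase, had a dPAS share of 68.9% and 76.7% in NT, 82.3% in AS and 93.0% in RC4. The NT libraries differed by the same criteria for Arih1 and Csk, where the NT 4 h library lay nearer to RC4.

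**Figure D5:**
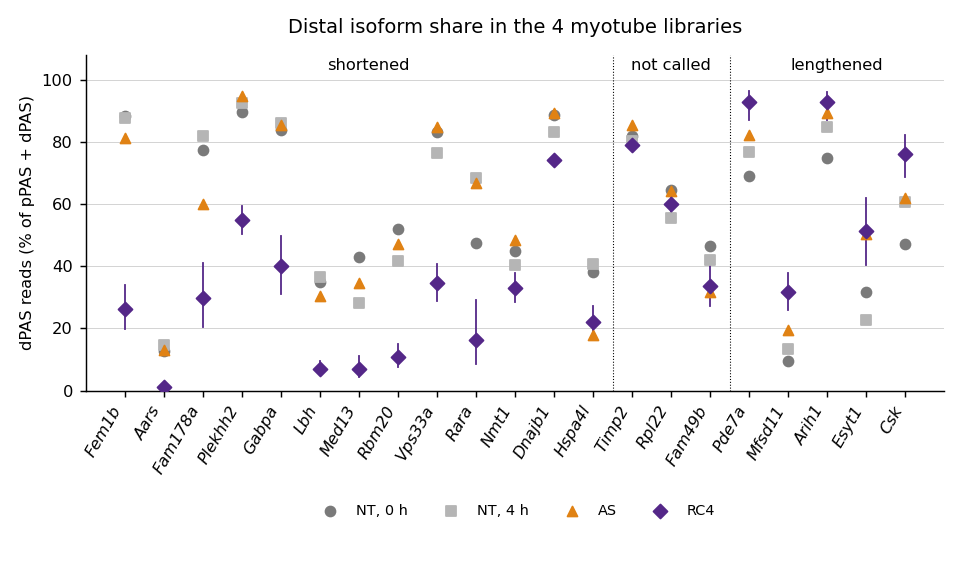
dPAS reads as a percentage of pPAS and dPAS reads in the 4 MT libraries (symbols as in the plot of levels) for 21 genes, with the Wilson 95% interval of RC4 as a line. The RC4 points lie below both NT points in the 13 shortened genes on the left and above both in the 5 lengthened genes on the right.

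MB showed the same direction. In MB at 4 h of recovery, 538 of 1846 genes were shortened (29.1%) and 70 lengthened (3.79%) against the summed NT reads, where the NT libraries of MB gave 209 shortened and 217 lengthened of 2115. Among 1684 genes tested in both states, 190 were shortened in both, 68.6% of the 277 in MT and 37.6% of the 505 in MB, where 30.0% of the genes tested in both were shortened in MB. The MT calls had to be met against each NT library, a stricter rule than the summed NT reads used for MB. These counts are thus not like for like. With NT reads summed, 563 of 2631 genes (21.4%) were shortened in MT. Of the 277, 1 gene was lengthened in MB. The median RED of these 1684 genes was -0.28 in MT and -0.46 in MB. The edgeR test of the difference between the states called no gene and gave 216 at an unadjusted p under 0.05. Rpl22 was shortened in MB (RED -1.01) and not called in MT (0.01).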

How the data were processed

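Alignment to mm9 used bowtie2 (local) after adapter removal by Cutadapt. Low-quality alignments and reads lacking nongenomic Ts were dropped, sites within 24 nt were merged, and the values deposited by the authors are raw counts of reads at each PAS. Clusters under 5 reads are not listed. The files name no genes. Here 24213 clusters of the 8 cytoplasmic C2C12 libraries (1649925 to 2923091 PAS reads each) were assigned to last exons of GENCODE M1 protein-coding genes on the same build, or up to 4000 nt past their ends, for 11174 genes. 5143 clusters lay past an annotated end, 57 ambiguous ones were left out, and mitochondrial genes were not used. The other 34 libraries were not used.

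Gene sums were tested with edgeR 4.0.16 (quasi-likelihood, median-ratio factors, mean of at least 10 reads, 6 groups, R 4.3.3). DESeq2 1.42.0 was an alternative. RPM are reads per 1000000 gene reads after these factors. Ratios to single libraries used a pseudocount of 0.5. Isoform shares were tested with Fisher's exact test (scipy 1.17.1). In simulated reads on 8362 genes, edgeR recovered 23% of genes changed by 1 on the log2 scale and 86% of those changed by 2, with 5 false calls. In 2631 simulated isoform pairs, the edgeR isoform test recovered 40.5% of those changed by -1.5. On 2428 pairs the rule with Fisher's test recovered 74.1% and called 2.47% of unchanged genes. The isoform simulation used a chosen spread between libraries, not one estimated from these data, and gave MB the isoform shares of MT. Its rates need not hold for these data.

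The members, the 25 gene lists and the tests were chosen with earlier results of these data known. Named genes were, per list, up to 4 called members with the largest log2 fold change and up to 2 with the most reads not called, the 10 that rose and 10 that fell most among called genes past 2-fold against each NT library with a mean of at least 50 reads, the 8 qPCR genes, and the 10 most negative and 5 most positive REDs among called genes with at least 50 reads of each isoform. Other list members are named for their level or role, chosen after their values were seen. Where no NT reads were listed, folds are against 4 reads per PAS. Some genes that this rule selects are not reported here. Promoters are RefSeq windows on GRCm38.p6, matched by symbol.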

Additional observations from a re-analysis of the deposited data

How the results depend on the processing

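RC4 has 1 library, so every gene-level call rests on the spread of the NT libraries. Leaving out an NT library of MT in turn gave 24 to 25 genes higher and 1 lower in RC4 than NT, all among the 190 and 68, and fitting the 3 MT libraries alone, with 1 residual degree of freedom, gave 835 and 712. With no filter on low reads 98 rose and 27 fell, and with DESeq2 148 rose and 40 fell. TMM (214 and 81) and library totals (153 and 97) stayed within 1.5 times. For RC4 against AS, TMM gave 46 higher and 25 lower, DESeq2 52 higher, no filter 4 higher and 0 lower, and leaving out either NT library 0 and 0. For MT against MB, DESeq2 gave 6 and 5 where edgeR gave 0.

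Isoform counts depended on the rule. Summing the NT reads gave 563 shortened and 55 lengthened genes, more than 20 reads of each isoform 205 shortened of 1151, edgeR 0 and 0, and leaving out an NT library in turn 506 to 560 shortened and 61 to 62 lengthened. The median RED was -0.25 with more than 20 reads and -0.35 for the most proximal and distal PASs. The difference between the longest and shortest bins was -0.55 with more than 20 reads, -0.61 with reads thinned to the smallest library and -0.64 for the most proximal and distal PASs. Leaving out an NT library gave -0.32 to -0.28 for the median and -0.60 to -0.59 for the bins. Of the named genes' log2 fold changes under all gene-level alternatives, 683 kept their side of the threshold, 89 lost it, 20 gained it and none of the called ones reversed. The cause of these differences was not tested beyond the fewer libraries or genes in the fit.

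Every label ends in the same replicate number, so samples could be matched only by sampling time (0 h or 4 h), a fit chosen after seeing the data. The 4 h minus 0 h log2 differences of NT had a Pearson r of 0.28 between MT and MB across 3313 genes, which are not independent replicates. With sampling time as a replicate block, which leaves 1 residual degree of freedom, 201 genes rose and 89 fell against NT, 172 and 58 of them among the 190 and 68. RC4 against AS gave 17 higher and 8 lower, and MT against MB 0 and 0.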

Other observations

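Some genes outside the lists also changed at 4 h of recovery, and they were picked after their values were seen. Secreted growth factors were among the genes that rose by the edgeR test. The EGF receptor ligand Areg had 3.85 and 5.67 RPM in NT and rose 27.8-fold (adjusted p = 0.00352), the neurotrophic factor Gdnf rose 36.9-fold, the stress cytokine Gdf15 77.1-fold, Pgf 6.86-fold and Vegfa 2.93-fold. Of 20 cytosolic aminoacyl-tRNA synthetase genes, which charge tRNAs and include known ATF4 targets, 3 rose (Sars, Tars and Gars, 2.22-fold to 3.18-fold) and none fell. The median log2 fold change of the 20 was 0.41, and 15 were above each NT library, as were 38.0% of all genes. Aars, the gene with the second most negative RED, had a log2 fold change of 1.35 (adjusted p = 0.0508).

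Rhob, a small GTPase with a short-lived mRNA, had 638 and 569 RPM in NT, 1089 RPM in AS and 188 RPM in RC4, and fell against both NT (adjusted p = 0.0169) and AS (adjusted p = 0.0228) by the edgeR test. Klf2 and Fam110a had the same course, with NT between AS and RC4. Cav3, the caveolin of muscle membranes, was 3.69-fold and Tead4, a transcription factor of muscle genes, 2.47-fold below NT.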
